A study of Mus musculus with 6 samples.

Results

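The 10 genes described here encode semaphorins (*Sema4a*, *Sema4d* and *Sema7a*), plexins (*Plxna1*, *Plxnb2*, *Plxnc1* and *Plxnd1*), both neuropilins (*Nrp1* and *Nrp2*) and the collapsin response mediator protein CRMP2 (*Dpysl2*). They were taken by gene symbol from a table of 19309 genes, and each was present under 1 gene identifier. RNA was sequenced from macrophages derived from the bone marrow of 3 sEH-/- and 3 wild-type mice, with 1 library per mouse. The wild-type mice were C57BL/6N, and the sEH-/- littermates (Ephx2tm1.1Arte x Gt(ROSA)26Sortm16(Cre)Arte) lack *Ephx2*, the gene for the soluble epoxide hydrolase (sEH), in every cell and throughout life, so that the bone marrow precursors lacked the enzyme as well. The mice were young adults, and the study's methods state that most of its experiments used females. Cells of both genotypes were cultured with GM-CSF and M-CSF over 7 days, given IFN-γ and LPS, and after 24 h also TGF-β1 for 48 h to obtain the M2c state, according to the series' design text, whereas the methods give a shorter first step and either of a pair of durations for TGF-β1. The comparison asks which transcripts depend on sEH in M2c macrophages.

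Semaphorins are secreted or membrane-bound cues that were first described in axon guidance. They bind plexins, whose cytoplasmic part inactivates small GTPases of the Ras and Rap families and so loosens adhesion and remodels the cytoskeleton. Neuropilins have short cytoplasmic tails and serve as co-receptors, with plexins for class 3 semaphorins and with receptor tyrosine kinases for members of the VEGF family, and neuropilin-1 also binds TGF-β1 and its receptors. CRMP2 binds tubulin in the cytosol and is phosphorylated downstream of semaphorin signals. In myeloid cells, these proteins are known for roles in migration, adhesion and contacts with lymphocytes.

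Library totals lay between 4400197 and 5818444 counts in the sEH-/- group and between 4632688 and 6096440 in the wild-type group. The authors' counts were tested with edgeR for the 13785 genes with a mean above 5 counts, which included all 10 genes described here. A gene was called at an adjusted p below 0.05 together with a difference of more than 1.5-fold in either direction, and differences are given below as the log2 ratio of sEH-/- to wild-type. *Ephx2* itself was counted 4, 2 and 1 times in the libraries labelled sEH-/- and 26, 49 and 57 times in those labelled wild-type (log2 ratio -4.05 ± 0.43, SE, adjusted p = 0.0042). All 10 macrophage markers had at least 10 counts in every library, with *Csf1r*, the M-CSF receptor, as the highest (2191 to 2628 counts). Their summed level was 2220 to 2750 CPM (the TMM-normalized read count) in the sEH-/- group and 1970 to 2460 CPM in the wild-type group. The log2 ratio was above 0 for all 10 of them (0.069 to 0.61), 2 were higher in every sEH-/- than in every wild-type library (*Fcgr1* and *Cd14*), and *Cd14*, a co-receptor for LPS, had an adjusted p of 0.029 (log2 ratio 0.50 ± 0.098, SE), short of the 1.5-fold threshold. Its adjusted p was above 0.05 when sEH-/- replicate 2 (0.085) or one of the wild-type replicates 2 (0.15) and 3 (0.14) was left out, and without wild-type replicate 1 both *Cd14* (0.60, adjusted p = 0.0096) and *Fcgr1* (0.59, adjusted p = 0.02) were called. *Cd14* and *Fcgr1*, an Fc receptor, are named after their values were seen. The other marker lists were led by *Mmp8* for neutrophils (1363 to 1516 counts), *Clec9a* for dendritic cells (96 to 232), *Cd4* for lymphocytes (93 to 189), *Klf1* for erythroid cells (3 to 11) and *Col1a2* for stromal cells (7 to 171). Of 25 tested marker genes, 0 were called by edgeR, against 2.61% of all tested genes (8 at an unadjusted p below 0.05, and 1, *C1qa*, called by DESeq2). Counts at an unadjusted p below 0.05, here and below, have no share of all tested genes beside them and are not read as a result. These top genes do not stand for their lists. At least 10 counts in every library were reached by 2 of the 8 neutrophil markers in the table and by 4 of the 8 dendritic cell markers. The tested neutrophil markers, *Mmp8* (log2 ratio 0.15, adjusted p = 0.44) and *S100a8* (0.54, adjusted p = 0.057), were both above 0. *S100a8* is named after its values were seen. The tested dendritic cell markers had log2 ratios from -0.98 to 0.34, with 1 above 0. Their list summed to 38.7 to 71.3 CPM in the sEH-/- group and 55.3 to 71.6 CPM in the wild-type group. None of the 6 mast cell and basophil markers was analysed here.

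Of the 10 genes, 1 was called, *Dpysl2*, which was higher in the sEH-/- group, against 360 of 13785 tested genes (2.61%). With the adjusted p alone, without the threshold on the fold change, 2 of the 10 passed (*Dpysl2* and *Plxnc1*, both higher in sEH-/-), against 4.01% of all genes. In 3 of the 10 (*Dpysl2*, *Plxnc1* and *Sema4d*), every sEH-/- library lay above every wild-type library, compared with 11.8% of all genes, and 0 of the 10 showed the opposite order, compared with 14.5% of all genes. The 10 genes were chosen with earlier results of these data known, so that these shares are no test of the set. For 8 of the 10, the log2 ratio was above 0, with a median of 0.13, against 49.8% and a median of -0.00092 over all genes. Among the 4296 genes with at least 0.1 counts per exonic base, as is the case for 6 of the 10, 58.1% had a log2 ratio above 0. The tested macrophage and neutrophil markers thus had log2 ratios of the same sign as most of the 10 genes, and most tested dendritic cell markers of the other. Among the macrophage markers, the highest count was from 1.02 times (*Lyz2*) to 1.98 times (*C1qa*) the lowest, while the library totals differed by 1.39 times. *Lyz2*, named after its values were seen, had 0.88 counts per exonic base. At such level counts, the CPM mostly follows the library total. The part of these lists in the values of the 10 genes was not tested. For 8 of the 10, the 95% interval of the log2 ratio stayed within 1.5-fold of equal levels, and *Dpysl2* and *Sema7a* were the exceptions.

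**Figure D1:**
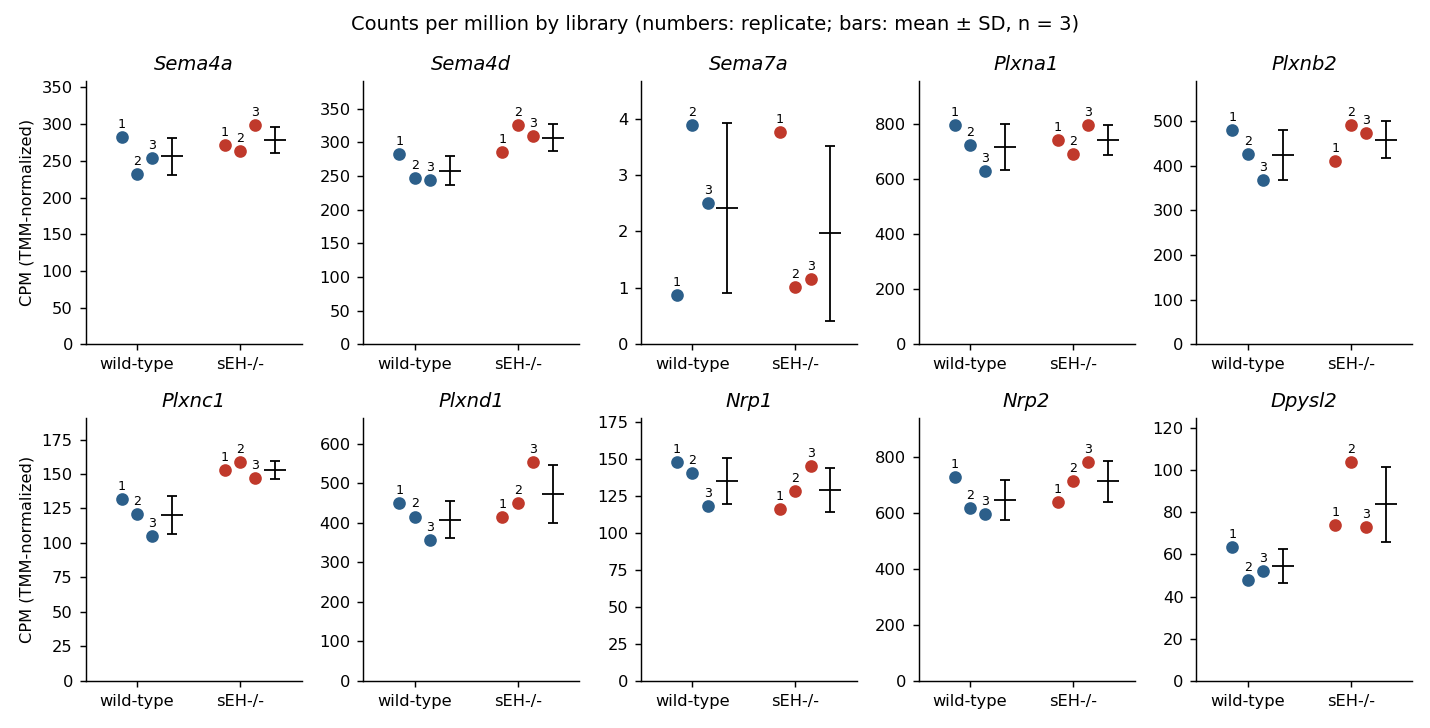
Level of each of the 10 genes in each library, in TMM-normalized CPM on axes that start at 0. Points are single libraries with their replicate number, blue for wild-type and red for sEH-/-, and the black bars give the mean ± SD of 3 libraries. The groups are separate for *Sema4d*, *Plxnc1* and *Dpysl2* and overlap for the other 7 genes.

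The ligands come first. *Sema4a* (ENSMUSG00000028064, mm10 chr3:88435959-88461182, minus strand) encodes a membrane-bound semaphorin that antigen-presenting cells use in contacts with T cells. Its level was 272, 264 and 299 CPM in the sEH-/- libraries and 282, 232 and 254 CPM in the wild-type libraries. The groups overlapped, with the wild-type replicate 1 above 2 of the sEH-/- libraries. The means were 278 ± 17.9 CPM (SD, n = 3) and 256 ± 25.3 CPM (SD, n = 3), with a log2 ratio of 0.12 ± 0.09 (SE), which did not pass the test (adjusted p = 0.46).

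*Sema4d* (ENSMUSG00000021451, chr13:51685529-51793747, minus strand) encodes CD100, a membrane-bound ligand of B-type plexins and of CD72 that can be shed. It reached 285, 326 and 309 CPM in the sEH-/- libraries and 282, 247 and 244 CPM in the wild-type libraries. All sEH-/- values were above all wild-type values, but the lowest of the former and the highest of the latter were separated by less than the SD of either group. The mean was 307 ± 20.4 CPM (SD, n = 3) for sEH-/- and 258 ± 21.1 CPM (SD, n = 3) for wild-type cells. A log2 ratio of 0.25 ± 0.086 (SE, 95% interval 0.059 to 0.44) had an unadjusted p of 0.015 and did not pass after adjustment over all genes (adjusted p = 0.11).

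*Sema7a* (ENSMUSG00000038264, chr9:57940112-57962865, plus strand) encodes a semaphorin held in the membrane by a lipid anchor, which binds plexin-C1 and integrins with the β1 chain. It was close to the detection limit, with 22, 5 and 5 sEH-/- and 4, 24 and 14 wild-type counts, or 3.76, 1.01 and 1.16 CPM and 0.878, 3.89 and 2.5 CPM. Each group held a library with more than 20 counts and a library with 5 or fewer, and the ranges overlapped almost completely. This gave a log2 ratio of -0.28 ± 0.58 (SE, adjusted p = 0.82), with a 95% interval of the ratio from 0.337-fold to 2.01-fold. The wild-type replicate 2, which had the highest *Sema7a* level, also had the most collagen counts (336, against 14 to 107 in the other 5 libraries). In contrast, sEH-/- replicates 1 and 2 had nearly equal collagen counts (63 and 64) but 22 and 5 counts of *Sema7a*. The summed level of the 8 endothelial and stromal markers in the table was 16.2 to 19.8 CPM in the sEH-/- group and 8.78 to 64.3 CPM in the wild-type group, and its part in the *Sema7a* values was not tested.

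Among the plexins, *Plxnc1* (ENSMUSG00000074785, chr10:94790866-94944835, minus strand), the receptor of semaphorin 7A, was the 1 gene with an adjusted p below 0.05. The sEH-/- counts were 898, 791 and 634 and the wild-type counts 603, 750 and 587. After normalization this gave 153, 159 and 147 CPM against 132, 121 and 105 CPM. The sEH-/- libraries lay close together, all above the highest wild-type library. The means were 153 ± 6.29 CPM (SD, n = 3) and 120 ± 13.8 CPM (SD, n = 3), a 1.28-fold difference (95% interval 1.12 to 1.47). The log2 ratio was 0.36 ± 0.088 (SE, adjusted p = 0.049), short of the 1.5-fold threshold, so that *Plxnc1* was not called. Its adjusted p was above 0.05 when sEH-/- replicate 1 (0.057), sEH-/- replicate 2 (0.15) or either of the wild-type replicates 2 and 3 (0.19 each) was left out.

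*Plxnd1* (ENSMUSG00000030123, chr6:115954811-115995005, minus strand), a receptor for semaphorin 3E, had the next highest log2 ratio among the plexins of the 10. It was detected at 414, 450 and 555 CPM in the sEH-/- libraries and 451, 416 and 357 CPM in the wild-type libraries. The sEH-/- replicate 3 was highest and the wild-type replicate 3 lowest, while the other 4 libraries lay between 414 and 451 CPM. The means of 473 ± 73.1 CPM (SD, n = 3) and 408 ± 47.4 CPM (SD, n = 3) differed by a log2 ratio of 0.21 ± 0.12 (SE), which did not pass the test (adjusted p = 0.34). Without sEH-/- replicate 3 the log2 ratio was 0.092, below that of *Plxnb2* in the same fit (0.099), and without wild-type replicate 3 it was 0.12.

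For 8 of the 10 genes, RefSeq promoters were matched by symbol on GRCm38.p6, the assembly that mm10 is built on, with 14 listed starts. The 250 bases before the start are shown, 5′ to 3′ on the strand of the gene, for the plexin whose adjusted p was below 0.05 and for the plexin with the next highest log2 ratio over all 6 libraries, a rank that depends on sEH-/- replicate 3, since TGF-β1 was given to all cultures and acts through Smad factors. *Plxnc1* is at chr10:94944846-94945095 and *Plxnd1* at chr6:115995006-115995255, both on the minus strand. Capitals mark the core of Smad sites (GTCT or AGAC) and GC boxes (GGGCGG or CCGCCC), which SP1 can bind, searched on both strands.
Plxnc1: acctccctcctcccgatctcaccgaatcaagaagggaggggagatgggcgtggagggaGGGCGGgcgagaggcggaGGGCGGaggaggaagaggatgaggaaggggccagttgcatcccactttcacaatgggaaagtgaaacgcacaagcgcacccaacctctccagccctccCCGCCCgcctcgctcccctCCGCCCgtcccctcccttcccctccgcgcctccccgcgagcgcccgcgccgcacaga
Plxnd1: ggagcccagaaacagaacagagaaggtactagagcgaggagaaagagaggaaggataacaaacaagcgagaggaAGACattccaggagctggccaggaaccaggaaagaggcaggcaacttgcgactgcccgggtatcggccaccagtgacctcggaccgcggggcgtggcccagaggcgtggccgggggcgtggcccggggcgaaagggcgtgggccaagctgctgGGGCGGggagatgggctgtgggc
The *Plxnc1* window held 4 GC boxes and no Smad core motif, and the *Plxnd1* window 1 of each. A Smad core motif was found in 13 of the 14 windows of these genes and in 82.9% of 32851 windows of all genes. The longer CAGA box (CAGAC or GTCTG), which contains the core, was found in 7 of 14 windows against 42.2%. GC boxes occurred in 11 of 14 windows against 32.7%. The GC content of the 14 windows ran from 52% (*Sema4d*) to 72.4% (*Nrp2*), with 68.8% for *Plxnc1* and 64.8% for *Plxnd1*, and had a median of 52.4% over all genes. Several starts of 1 gene are counted as separate windows, as the 14 belong to 8 genes. The AP-1 motif (TGACTCA or TGAGTCA) was in 0 of 14 windows against 4.46%, and the NF-κB motif and p53 motif were each in 1 of 14, against 3.9% and 7.13%. These are matches of letters and not measured binding.

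*Plxna1* (ENSMUSG00000030084, chr6:89316314-89362620, minus strand) encodes a receptor for class 3 and class 6 semaphorins. Its level was 741, 689 and 796 CPM in the sEH-/- libraries and 795, 724 and 629 CPM in the wild-type libraries, with overlapping ranges. This corresponds to a log2 ratio of 0.051 ± 0.11 (SE, adjusted p = 0.83), with a 95% interval from -0.19 to 0.29. *Plxnb2* (ENSMUSG00000036606, chr15:89155549-89180788, minus strand) encodes a receptor for class 4 semaphorins. It was measured at 411, 491 and 473 CPM in the sEH-/- group and 479, 425 and 368 CPM in the wild-type group. The lowest value was in wild-type and the highest in sEH-/- cells, but the ranges overlapped and the log2 ratio of 0.11 ± 0.11 (SE) did not pass the test (adjusted p = 0.59, 95% interval -0.13 to 0.36).

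Of the neuropilins, *Nrp1* (ENSMUSG00000025810, chr8:128358604-128503363, plus strand) was found at 116, 128 and 145 CPM in the sEH-/- libraries and 148, 140 and 118 CPM in the wild-type libraries. The groups covered nearly the same range. The mean was 129 ± 14.7 CPM (SD, n = 3) for sEH-/- and 135 ± 15.5 CPM (SD, n = 3) for wild-type cells, and the log2 ratio of -0.065 ± 0.1 (SE, adjusted p = 0.76) had a 95% interval from -0.30 to 0.16. *Nrp2* (ENSMUSG00000025969, chr1:62703285-62818695, plus strand), which also binds VEGF-C, gave 641, 715 and 784 CPM in the sEH-/- libraries and 729, 618 and 595 CPM in the wild-type libraries. The wild-type replicate 1 lay above 2 of the sEH-/- libraries, and the log2 ratio of 0.14 ± 0.11 (SE) did not pass the test (adjusted p = 0.50, 95% interval -0.11 to 0.39).

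*Dpysl2* (ENSMUSG00000022048, chr14:66802864-66868688, minus strand) was the 1 called gene. Its counts were 433, 518 and 316 in sEH-/- against 289, 296 and 290 in wild-type macrophages, or 73.9, 104 and 73.1 CPM against 63.4, 47.9 and 51.9 CPM. All sEH-/- libraries lay above all wild-type libraries, with replicate 2 of sEH-/- well above the other two and replicate 1 of wild-type nearest to the sEH-/- group. The means were 83.8 ± 17.8 CPM (SD, n = 3) for sEH-/- and 54.4 ± 8.06 CPM (SD, n = 3) for wild-type cells, a 1.55-fold difference with a 95% interval of 1.23 to 1.95. The log2 ratio was 0.63 ± 0.15 (SE, adjusted p = 0.047). In bulk RNA, more transcript per cell and more cells that express the gene cannot be told apart. The call was lost without sEH-/- replicate 2 (log2 ratio 0.46, adjusted p = 0.11), without wild-type replicate 2 (0.54, adjusted p = 0.21) and without wild-type replicate 3 (0.60, adjusted p = 0.19), while the log2 ratio was above 0 under all 19 alternative settings. All of these settings use the same libraries or parts of them. The settings without a fold change threshold and with glmTreat keep the log2 ratio of the main fit, so that its sign could hardly differ.

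**Figure D2:**
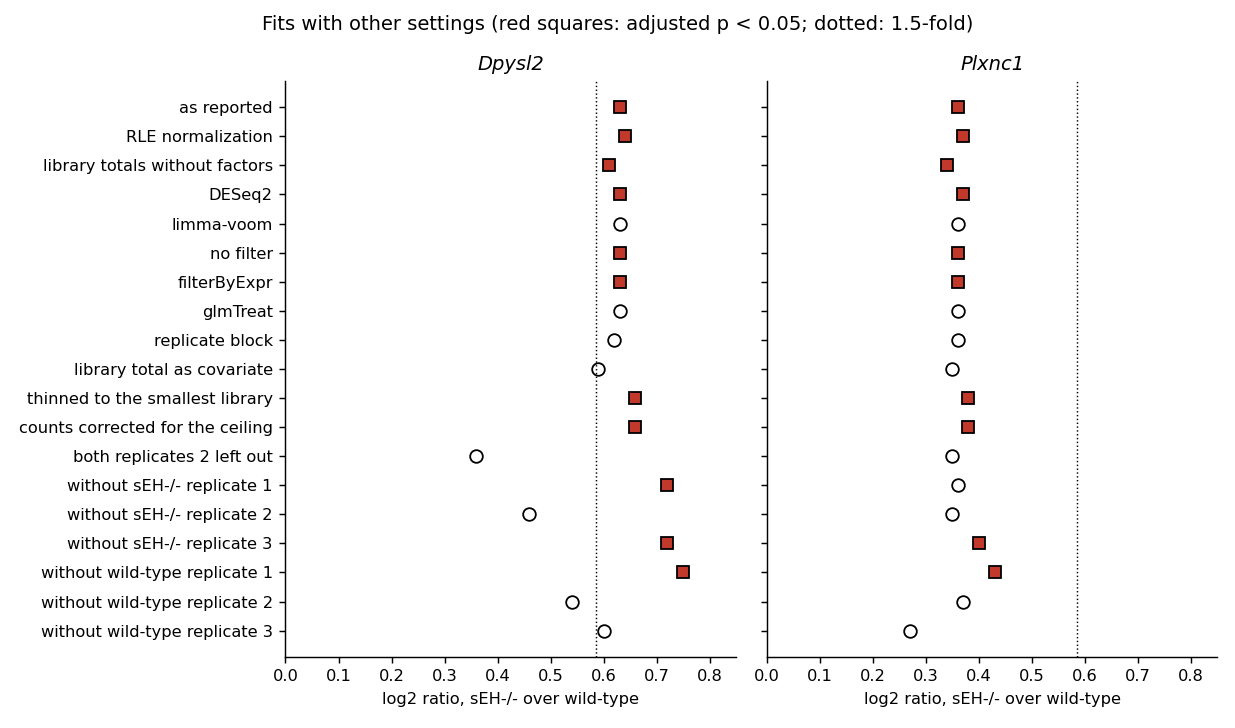
Log2 ratio of *Dpysl2* and *Plxnc1* (sEH-/- over wild-type) as reported and under 18 other settings, 1 per row. Red squares have an adjusted p below 0.05, open circles do not, and the dotted line marks a 1.5-fold difference. All points lie above 0, *Dpysl2* between 0.36 and 0.75 and *Plxnc1* between 0.27 and 0.43.

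*Dpysl2* lies on the same chromosome as the deleted gene, 678 kb from *Ephx2* (chr14:66084374-66124500). Since sequence close to a deleted gene is inherited with it, the genes in a window of 1 Mb on either side of *Ephx2* were read from the same fit, a window chosen after the values were seen. Of the 11 tested genes in it, only *Dpysl2* was called. The other 10 had log2 ratios between -0.23 and 0.35, and the lowest adjusted p among them was 0.066. The 3 tested genes between *Ephx2* and *Dpysl2* had log2 ratios from -0.23 to 0.092. Within 10 Mb, 3 of 126 tested genes were called (2.38%), *Dpysl2*, *Spata13* (log2 ratio 0.89, adjusted p = 0.017) and *Tnfrsf10b* (-1.33, adjusted p = 0.029). Both of the latter calls were lost without wild-type replicate 2 or 3, and that of *Tnfrsf10b* also without sEH-/- replicate 2. For *Dpysl2*, loss of sEH and a difference at the locus cannot be told apart in these libraries.

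**Figure D3:**
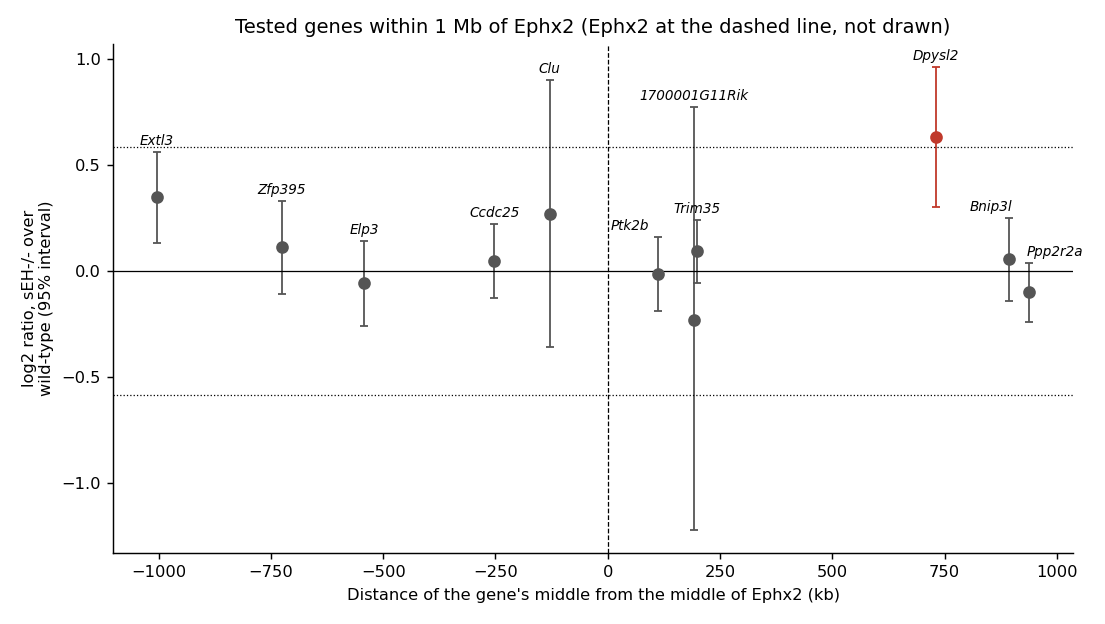
Log2 ratio with 95% interval (sEH-/- over wild-type) of the 11 tested genes within 1 Mb of *Ephx2*, against the distance in kb between the middle of each gene and the middle of *Ephx2* (dashed line). Dotted lines mark a 1.5-fold difference in each direction. *Dpysl2* (red, 0.63) is the 1 gene past the threshold, and the other 10 lie between -0.23 and 0.35.

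Levels were compared between genes per kilobase of exon, on the wild-type means. *Plxna1* was highest at 79.1 ± 9.18 CPM per kb (SD, n = 3), and no other gene's wild-type range reached its range. *Plxnd1* (55.9 ± 6.49), *Plxnb2* (54.9 ± 7.21), *Nrp2* (54.7 ± 6.09) and *Sema4a* (47.4 ± 4.69) followed, and the ranges of each overlapped the next in that order. *Sema4d* (33.6 ± 2.75 CPM per kb) stood apart on both sides. *Plxnc1* (14.3 ± 1.65), *Nrp1* (13.8 ± 1.58) and *Dpysl2* (12 ± 1.78) formed a group of overlapping ranges, and *Sema7a* was lowest at 0.735 ± 0.457 CPM per kb. In the sEH-/- libraries, *Dpysl2* (18.5 ± 3.93) and *Plxnc1* (18.3 ± 0.753 CPM per kb) both lay above *Nrp1* (13.2 ± 1.51) with no overlap of the ranges. The order depends on the length used. With the longest transcript in place of all exonic bases, *Nrp2* was the highest (96.3 CPM per kb) and *Sema4a* came next (79.9), ahead of *Plxna1* (79.3). The mean of *Nrp1* then lay above those of *Plxnc1* and *Dpysl2* in both groups. The means were 35.5, 21 and 18.5 CPM per kb in sEH-/- and 37.1, 16.4 and 12 CPM per kb in wild-type.

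**Figure D4:**
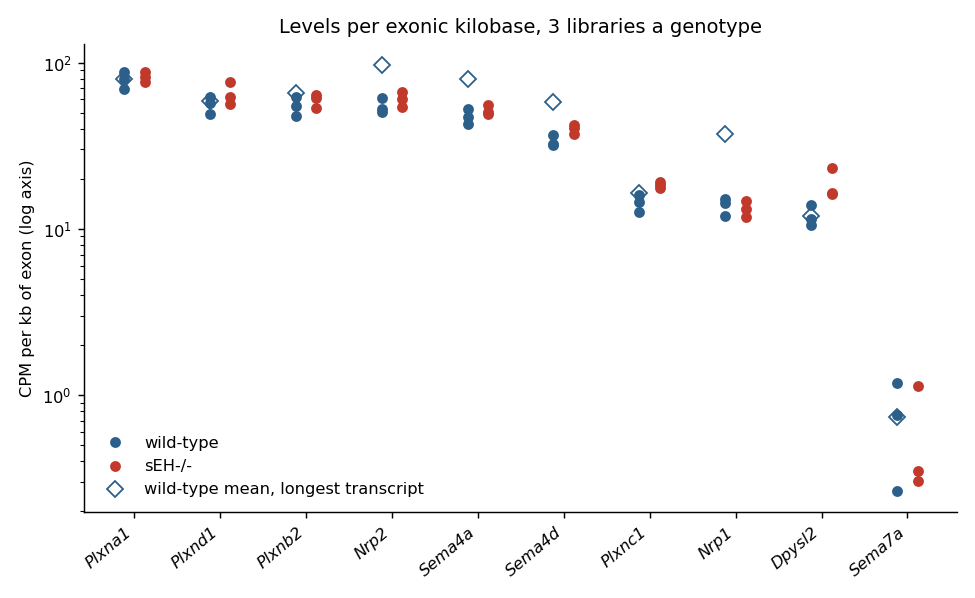
Level per kilobase of exon (CPM per kb, log axis) of the 10 genes in order of their wild-type means. Filled points are single libraries, blue for wild-type and red for sEH-/-, and open diamonds are wild-type means per kilobase of the longest transcript. Wild-type means run from 79.1 for *Plxna1* to 0.735 for *Sema7a*, and the diamonds of *Nrp2*, *Sema4a*, *Sema4d* and *Nrp1* lie clearly above their points.

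Duplicate reads had been removed before counting, which can level off genes with many reads per base. The 10 genes lay between 0.0037 counts per exonic base (*Sema7a*) and 0.42 (*Plxna1*), and the highest value of any gene was 0.97. For *Nrp2*, the highest count was 1.15 times the lowest across the 6 libraries, and for *Plxna1* 1.31 times, while the library totals differed by 1.39 times. At nearly level counts, CPM is higher in smaller libraries. *Nrp2* was highest in sEH-/- replicate 3 (784 CPM, 4400197 counts in total) and wild-type replicate 1 (729 CPM, 4632688 counts). With library total as covariate, the log2 ratio was 0.08 for *Nrp2*, 0.08 for *Sema4a*, 0.14 for *Plxnd1*, 0.22 for *Sema4d* and -0.12 for *Nrp1*. With counts corrected for such a ceiling, *Dpysl2* was still called (log2 ratio 0.66, adjusted p = 0.045), but at 0.079 counts per exonic base the correction changes it little. Of the genes with more counts per base, *Plxna1* had a corrected log2 ratio of 0.039 (adjusted p = 0.88). *Plxnd1* had 0.24 (adjusted p = 0.31) and *Nrp2* 0.15 (adjusted p = 0.46). *Plxna1* overlaps *Gm26811* on the opposite strand and *Nrp2* overlaps *Gm37121* on the same strand, where reads over both genes had not been counted.

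The rest of the family was read from the same fit. Of 36 semaphorin, plexin, neuropilin and CRMP genes, 20 were tested, and *Dpysl2* was the 1 called. Among the 10 tested genes other than those described above, edgeR, DESeq2 and limma-voom each called 0, against 2.61% of all tested genes in edgeR's test. In that test, 3 had an unadjusted p below 0.05, and 7 had a log2 ratio above 0, against 49.8% of all genes. *Sema4b*, encoding a membrane-bound semaphorin, was counted 593, 488 and 389 times in sEH-/- against 386, 522 and 479 times in wild-type macrophages. After normalization, all sEH-/- libraries were above all wild-type libraries, at 96.5 ± 5.81 against 85 ± 0.626 CPM (SD, n = 3 each), with a log2 ratio of 0.19 ± 0.072 (SE, adjusted p = 0.15). *Sema4c*, another membrane-bound semaphorin, averaged 33.9 ± 6.76 against 26.1 ± 1.01 CPM (SD, n = 3 each), with overlap and a log2 ratio of 0.38 ± 0.15 (SE, adjusted p = 0.16). *Sema6b* (0.12 ± 0.12, SE, adjusted p = 0.60) and *Plxna2* (0.034 ± 0.19, SE, adjusted p = 0.94) had smaller log2 ratios. *Sema3c*, which encodes a secreted neuropilin ligand and is named here after its values were seen, had the highest log2 ratio of the family (1.27 ± 0.45, SE, adjusted p = 0.12). This value rests on 85 counts in sEH-/- replicate 1, against 32 and 16 in the other sEH-/- and 16, 25 and 16 in the wild-type libraries, and it was 0.55 without that library and 1.61 (called, adjusted p = 0.039) without sEH-/- replicate 3. A further 10 genes (*Sema3a*, *Sema3d*, *Sema3f*, *Sema3g*, *Sema4f*, *Sema4g*, *Sema6a*, *Plxnb1*, *Dpysl3* and *Dpysl5*) had 0 to 6 counts per library and were not tested, and *Sema3b*, *Sema3e*, *Sema5a*, *Sema5b*, *Crmp1* and *Dpysl4* were not analysed here. *Plxnb1*, 1 of the receptors of semaphorin 4D, and *Dpysl3* were thus at or near the detection limit in cells in which *Plxnb2* and *Dpysl2* were readily counted.

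**Figure D5:**
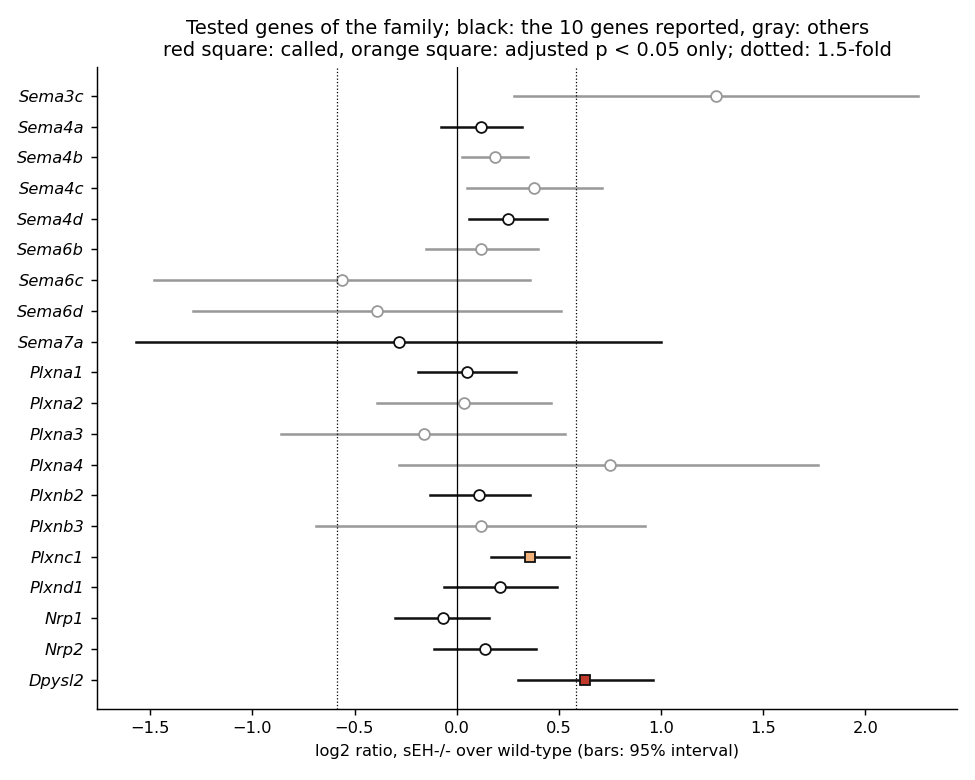
Log2 ratio (sEH-/- over wild-type) with 95% interval of the 20 tested family genes, in black for the 10 described in detail and in gray for the others. The red square is called (*Dpysl2*), the orange square passed the adjusted p alone (*Plxnc1*), circles passed neither, and dotted lines mark a 1.5-fold difference in each direction. Intervals are wide for low genes such as *Sema7a* and *Sema3c* and narrow for *Sema4a* and *Sema4d*.

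Receptors, ligands and signaling genes that work with the family were taken from 3 lists of 57 genes, of which 54 were tested. Of these 54, 1 was called, against 2.61% of all tested genes. This was *Pgf*, the VEGF family ligand placental growth factor that binds neuropilin-1 and *Flt1*. Its counts were 22, 12 and 15 in sEH-/- against 33, 57 and 44 in wild-type macrophages. The groups did not overlap, with 3.22 ± 0.706 CPM (SD, n = 3) for sEH-/- and 8.12 ± 1.02 CPM (SD, n = 3) for wild-type cells. The log2 ratio was -1.33 ± 0.26 (SE, adjusted p = 0.029), and *Pgf* thus fell in sEH-/- cells. The call was lost without sEH-/- replicate 2 (adjusted p = 0.099) and without wild-type replicate 2 (0.16) or 3 (0.13). Other ligands and receptors that neuropilins bind did not pass. *Vegfa*, the main angiogenic growth factor, had a log2 ratio of 0.20 ± 0.091 (SE, adjusted p = 0.22). The type I and type II TGF-β receptors had 0.21 ± 0.093 for *Tgfbr1* (SE, adjusted p = 0.20) and 0.049 ± 0.074 for *Tgfbr2* (SE, adjusted p = 0.75).

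Of 10 tested co-receptors, 0 were called by edgeR, against 2.61% of all tested genes (2 at an unadjusted p below 0.05, and 1, *L1cam*, called by DESeq2). *Itgb1*, the integrin chain that semaphorin 7A binds, had a log2 ratio of 0.021 ± 0.091 (SE, adjusted p = 0.92). *Trem2*, which forms a complex with plexin-A1 in myeloid cells, had 0.17 ± 0.10 (SE, adjusted p = 0.35), and *Met*, a kinase that associates with B-type plexins, 0.099 ± 0.093 (SE, adjusted p = 0.57). Of 34 genes of plexin and CRMP signaling, 0 were called by edgeR (9 at an unadjusted p below 0.05, and 1, *Rhod*, called by DESeq2). The count of 9 has no share of all genes to be set against. With the adjusted p alone, 1 of the 34 passed, against 4.01% of all genes. This was *Fes*, a kinase that phosphorylates CRMP proteins downstream of plexin-A1, which is named after its values were seen. *Fes* was counted 1071, 1132 and 767 times in sEH-/- against 697, 701 and 747 times in wild-type macrophages, or 196 ± 27.7 against 133 ± 19.7 CPM (SD, n = 3 each), without overlap after normalization. Its log2 ratio of 0.56 ± 0.12 (SE, adjusted p = 0.036) was just below the threshold, and its adjusted p was above 0.05 without sEH-/- replicate 2 (0.10) and without wild-type replicate 2 (0.17) or 3 (0.16). *Rhod*, also named after its values were seen, was lower, at 17.6 ± 5.66 CPM in sEH-/- against 31.4 ± 5.1 CPM in wild-type cells (SD, n = 3 each). The groups did not overlap, and the log2 ratio was -0.83 ± 0.21 (SE, adjusted p = 0.055). Of the 34 genes, 4 were higher in every sEH-/- than in every wild-type library and 6 were lower. Over all genes these shares were 11.8% and 14.5%. The genes with the highest mean count of that list, given with their log2 ratios, were the actin crosslinker *Flna* (0.14 ± 0.098, SE, adjusted p = 0.44), the actin-oxidizing plexin effector *Mical2* (-0.0073 ± 0.09, SE, adjusted p = 0.97) and the kinase *Pak2* (0.00022 ± 0.066, SE, adjusted p = 1.0).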

How the data were processed

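Bulk RNA-seq of M2c-polarized macrophages from 3 sEH-/- and 3 wild-type mice was analysed, grouped by the genotype in the sample labels. The authors deposited raw counts per gene, without normalization. The submitters' processing notes name Trimmomatic 0.39, STAR 2.7.7a, Picard 2.21.7, featureCounts 1.6.5, DESeq2 1.30.0 and mm10. According to the study's methods, duplicate, multi-mapping, ribosomal and mitochondrial reads were removed, and reads over exons were counted with strand, without reads shared by genes. The kit is a stranded mRNA kit in the labels and a total RNA kit in the methods.

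Counts were tested in R 4.3.3 with edgeR 4.0.16 (TMM, factors 0.982 to 1.026, glmQLFit and glmQLFTest, no covariates) and Benjamini-Hochberg adjustment over 13785 genes with a mean above 5 counts, which held 99.82% of all counts. The fit was run on counts simulated with its own dispersions, in which 200 genes differed by 2-fold or 4-fold. It called 192 of them and 5 others. Differences below 2-fold and a ceiling on the counts were not simulated. DESeq2 1.42.0 and limma 3.58.1 (voom) served as alternatives. The SE was taken as the absolute log2 ratio over the root of the F statistic. Intervals are 95%. Exon lengths came from GENCODE M21. No block was used in the main fit. The deviations of same-numbered replicates from their genotype means had correlations of -0.082, -0.26 and -0.037, all below 0. Fits with a replicate block and without both replicates 2 are given below.

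The genes and lists were chosen with earlier results of these data known. Named are the 10 genes, *Ephx2*, other family genes that were called or had a mean of at least 50 counts, called genes and the 3 highest of each partner list, and the highest marker of each list. Others are said to be chosen after their values were seen.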

Additional observations from a re-analysis of the deposited data

How the results depend on the processing

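Of the 10 genes, 1 was called, and 360 of all genes. The count of the 10 was 0 with limma-voom, with glmTreat against the threshold, with a replicate block, without both replicates 2 and with library total as covariate, and it was 2 (*Dpysl2* and *Plxnc1*) without a fold change threshold. Leaving out 1 library gave 0 to 1. Over all genes, 553 passed without a fold change threshold, 10 with glmTreat, 234 with the replicate block, 171 with the covariate, 22 without both replicates 2, and 6 to 625 when 1 library was left out (fewest without wild-type replicate 3). DESeq2 called 472. *Dpysl2* lost its call in 8 of 19 alternatives (log2 ratio 0.36 to 0.75, adjusted p 0.0034 to 1.0). With the replicate block it had 0.62 (adjusted p = 0.061) and *Plxnc1* an adjusted p of 0.069. *Pgf* lost its call in 7 of 19 (-1.48 to -1.05). The direction of *Dpysl2*, *Plxnc1*, *Sema4d*, *Sema4a*, *Plxnb2*, *Plxnd1* and *Nrp2* was the same in all 19, which reuse the same libraries and include settings that keep the main log2 ratio. It turned for *Sema7a* with the covariate (0.12), without both replicates 2 (0.56) and over single libraries left out (-1.21 to 0.23), and, over single libraries left out, for *Plxna1* (-0.035 to 0.13), *Nrp1* (-0.16 to 0.012), *Plxna2* (-0.24 to 0.20), *Sema6b* (-0.030 to 0.23) and *Mical2* (-0.065 to 0.064). *Itgb1* turned with the covariate (-0.027), the ceiling correction (-0.0056), without both replicates 2 (-0.0038) and over single libraries (-0.033 to 0.081). *Pak2* turned without factors (-0.021), without a filter (-0.0028), with the covariate (-0.0055), thinning (-0.0055), the ceiling correction (-0.0053), without both replicates 2 (-0.0016) and over single libraries (-0.011 to 0.019). The cause of these changes was not tested. The ceiling correction and the fit without both replicates 2 were chosen after seeing the data. *Sema7a*, with a mean of 12.3 counts, had the widest 95% interval of the 10 genes.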

Other observations

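*L1cam*, an adhesion molecule that acts as a co-receptor for semaphorin 3A together with neuropilin-1, was 1 of the 10 tested co-receptors and is named here after its values were seen. Its counts were 102, 67 and 32 in sEH-/- against 26, 38 and 27 in wild-type macrophages, or 12.8 ± 5.04 against 5.56 ± 0.673 CPM (SD, n = 3 each), without overlap after normalization. The log2 ratio of 1.21 ± 0.30 (SE) did not pass edgeR's test (adjusted p = 0.053), but DESeq2 called it, as did edgeR without sEH-/- replicate 3 (1.48, adjusted p = 0.012). *Flt1*, the VEGF receptor that binds *Pgf* and pairs with neuropilin-1, was also chosen after its values were seen. It averaged 52.6 ± 14.2 CPM (SD, n = 3) for sEH-/- and 36.3 ± 4.97 CPM (SD, n = 3) for wild-type cells, with a log2 ratio of 0.53 ± 0.18 (SE, adjusted p = 0.11). Without sEH-/- replicate 2 this was 0.33 (adjusted p = 0.37), and without sEH-/- replicate 1 it was 0.72 and called (adjusted p = 0.026).

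The sEH-/- replicate 1 held the most counts of the 6 libraries for *L1cam* (102), *Sema3c* (85) and *Plxna2* (524 against 220 to 482 in the others), whereas *Dpysl2* and *Flt1* were highest in sEH-/- replicate 2 (518 and 333 counts).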
